A study of Rattus norvegicus with 30 samples.

Results

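Kidney and lung of the same age and diet were set side by side to describe what marks each organ once the rats were past weaning. The 10 arrays compared were the 5 whole-kidney and the 5 whole-lung arrays, of 30 in all, titled as 5 wk and belonging to the normal-diet group. The animals were wild-type Sprague-Dawley rats aged 35 days, and each array held labelled RNA of 1 organ, called a biological replicate in its title. The other 20 arrays, used here only to see whether the organ difference was also there in other rats, were kidneys and lungs of rats aged 7 days (1 wk) on the normal diet and of rats aged 35 days that had received feed without enough tryptophan from birth until 4 wk. The labels name no promoter, transgene or pooling, and all groups share strain and genotype.

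The mammalian kidney filters plasma in the glomerulus and then recovers nearly all of the filtrate along the nephron: the proximal tubule takes back glucose, amino acids, phosphate and bicarbonate, the thick ascending limb takes back salt without water, and the distal tubule and collecting duct set the final salt, acid and water content of urine. The lung exchanges gas across alveoli lined by flat type 1 cells and by cuboidal type 2 cells that secrete surfactant, a film of lipid and protein that lowers surface tension, and its airways are lined by secretory and ciliated cells. In whole-organ RNA, fewer cells of a type and less RNA per cell cannot be told apart.

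Every array reported a signal, the scaled brightness of a probe set, for the same 31099 probe sets. Within an organ the 5 arrays correlated at 0.986 to 0.988 in kidney and 0.985 to 0.989 in lung (Pearson, log2(signal + 16), across genes), against 0.771 to 0.783 between a kidney and a lung array. Lung replicate 3 stood apart in genes of cardiac muscle and fat: Nppa, the atrial natriuretic peptide, gave signals of 72.3, 101, 3127, 122 and 58.4 on the 5 lung arrays and Ucp1, the uncoupling protein of brown fat, 31.3, 154, 1213, 70.9 and 28.7. Without it, 8654 genes were called in place of 8784. The genes on which it bears are given below with and without it. The number of arrays, 5 per organ, limits the precision.

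Organ identity reached most of the measured transcriptome. Of 11067 genes tested, 8784 (79.4%) differed between the organs in limma's moderated test at a Benjamini-Hochberg adjusted p under 0.05, and such genes are termed called here. Of the genes tested, 3870 (35%) were called higher in kidney and 4914 (44.4%) higher in lung. A call with a difference of at least 2-fold was reached by 3701 genes (33.4%), of which 1624 (14.7% of the genes tested) were higher in kidney and 2077 (18.8%) higher in lung. On 7650 genes (69.1%) no kidney array overlapped a lung array. The few largest differences lay on the kidney side: a log2 difference of at least 5 was found for 160 genes higher in kidney and 49 higher in lung. The balance between the organs depended on the scaling. The median log2 difference was -0.096, and 0.119 after each array was centred on its own median, which turned the share of called genes that were higher in kidney from 44.1% to 57% and the 2-fold counts to 1995 for kidney and 1731 for lung. Quantile normalization gave 48.6%, 1705 and 1900.

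A gene was tested when at least 5 of the 10 arrays reached their 40th percentile signal, so 467 genes passed through kidney arrays alone and 466 through lung arrays alone, and all 467 of the first were called, since a gene that passed through 1 organ had to differ. Differences are log2(signal + 16) in kidney minus lung with the standard error of the fit, so a positive value means higher in kidney. A fold is given only where the means of both organs, and most arrays of each, were above that percentile. A gene is termed detected in an organ where at least 3 of its 5 arrays reached the percentile, which was 87.0 to 108 on these arrays. Where 1 organ was below it, the size of the log2 value rests partly on that constant of 16, so folds are left out there. The gene lists below are described by counts and medians, over all members on the array. Many of them hold genes that passed through 1 organ alone and so had to differ. Where a list is said to have 0 members at least 2-fold higher in an organ by limma, an unadjusted p under 0.05 gave 0 as well.

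The largest difference in log2(signal + 16) belonged to Kap, the kidney androgen-regulated protein of the proximal tubule. Its signals were 17650, 15570, 20330, 19140 and 18880 on the 5 kidney arrays and 8.06, 3.55, 3.47, 6.73 and 3.05 on the 5 lung arrays, a log2 difference of 9.77 ± 0.09 (adjusted p = 1.37e-14). Umod, which encodes uromodulin, the main protein of normal urine, followed with 14920, 14120, 16430, 16980 and 15790 in kidney against 18.2, 2.37, 8.47, 8.55 and 18.8 in lung and a difference of 9.20 ± 0.16. In both genes every kidney array was far above every lung array, and all lung signals lay far under the percentile. The largest differences were taken only from called genes without overlap, and 69.1% of all genes tested did not overlap. The next were Slc13a3, a sodium-dicarboxylate carrier (9.0), the peroxisomal oxidases Hao2 (8.78) and Dao (8.66), the transaminase Aadat (8.76), the nuclear receptor Hnf4a (8.73), the urinary defensin Defb1 (8.69), Spp2 (8.53) and the sulfotransferase Sult1c2a (8.45). Since lung signals of these genes were so low, sizes and order depend on the added constant: with 1 in place of 16, Kap stood at 11.66, Dao at 11.47, Slc13a3 at 10.87 and Umod at 10.57. Among genes detected in both organs, the mucosal peptide Tff3 had the widest ratio, 91.6-fold higher in kidney, followed by the aldo-keto reductase Akr7a3 (52.5-fold), the hydroxyproline-pathway aldolase Hoga1 (50.6-fold), the proton pump subunit Atp6v0a4 (49.5-fold) and Ggt1 (48.1-fold). By the mean of its probe sets Hoga1 was 17.3-fold higher. Its lung signals were 87.75 to 105.7 on 4 arrays and 168.3 on replicate 3. The fold of Hoga1 thus rests on lung signals near the percentile and on that 1 array. Lung signals of Tff3, given below with the diet, were near the percentile too, so its ratio also rests on dim lung values.

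On the lung side the list was headed by surfactant protein B. Sftpb signals were 12970, 13150, 13300, 11180 and 12550 on the lung arrays and 6.92, 4.17, 5.41, 11.5 and 5.12 on the kidney arrays, a difference of -9.13 ± 0.09 (adjusted p = 1.72e-14). Ager, the receptor that marks alveolar type 1 cells, gave 9545, 11180, 9819, 9019 and 10350 in lung and 19.1, 9.51, 4.99, 14.2 and 11.04 in kidney, a difference of -8.51 ± 0.12. Neither gene overlapped between the organs on the 10 arrays, which the choice of the largest differences required. Sftpa1 (-8.83) and Sftpd (-8.0), the collectins of surfactant, the lamellar-body protein Lamp3 (-7.66), the airway secretoglobins Scgb3a1 (-8.36) and Scgb1a1 (-7.64), the antimicrobial peptide Defb4 (-8.42), the chemokine Cxcl3 (-8.35) and Sec14l3 (-7.58) completed the 10 largest. The order depends on the constant here too, since with 1 added the T-box factor Tbx4 (-9.92) passed Ager (-9.72), and Cxcl3 was at -3.97 by the mean of its probe sets. Among genes detected in both organs, Tmem100, a target of BMP signalling in endothelium, was 44.8-fold higher in lung, Gprc5a 42.1-fold, the elastic-fibre protein Mfap4 30.5-fold, the sodium channel subunit Scn3b 28.6-fold and Anxa8 28.2-fold.

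**Figure D1:**
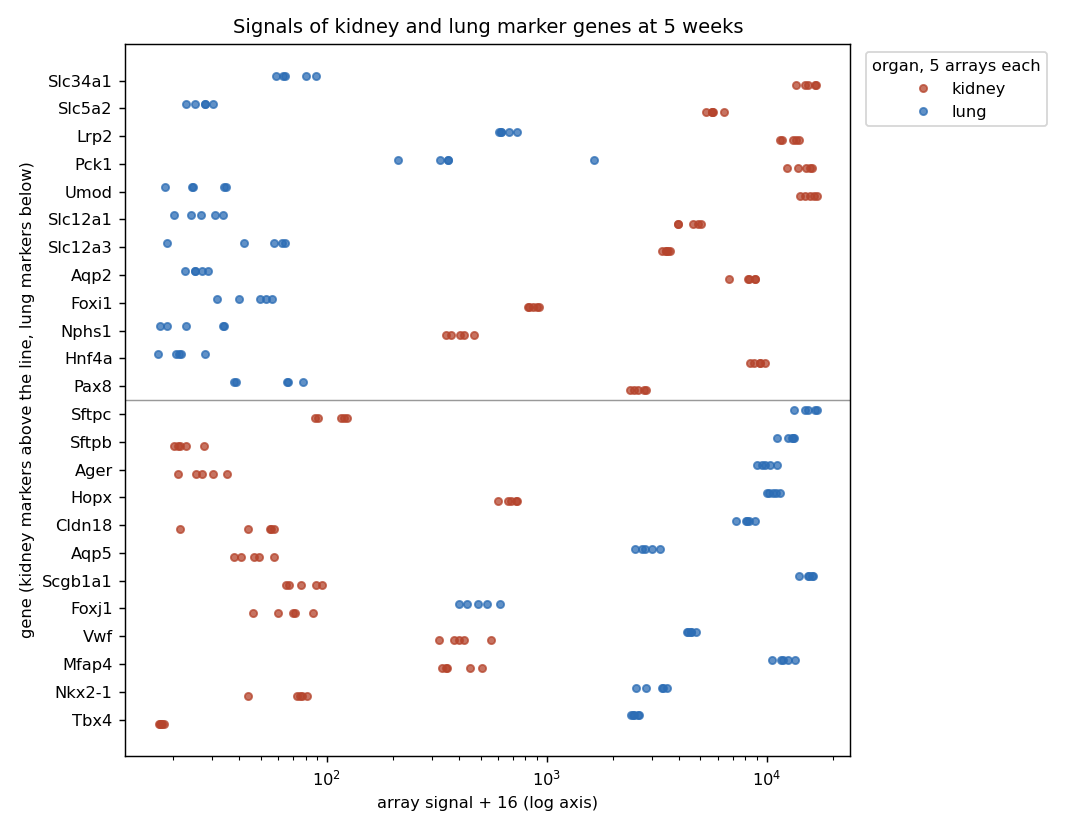
Signal + 16 on a log axis for 12 kidney markers above the line and 12 lung markers below it, with a point for each of the 5 kidney and 5 lung arrays. No kidney point overlaps a lung point for any of the 24 genes, and Pck1 on lung replicate 3 lies apart from the other lung arrays. The genes are chosen examples, and 69.1% of all genes tested did not overlap. List members that overlapped or went the other way, such as Podxl, Dpep1 and Napsa, are not drawn.

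Solute transporters of the proximal tubule had the largest median difference of any list. Of 33 solute transporters on the array, 31 were called and at least 2-fold higher in kidney and 0 higher in lung, with a median log2 difference of 6.05 over all members, against -0.096 over all genes tested. All 33 reached the 40th percentile in most kidney arrays and 12 did so in most lung arrays, and 20 of the 32 tested passed through kidney alone. Slc34a1, the apical phosphate carrier, had signals of 15000, 13650, 16830, 16650 and 15400 in kidney and 42.4, 48.2, 73.1, 47.2 and 64.4 in lung, a difference of 7.79 ± 0.12 (adjusted p = 3.53e-13). Every kidney array exceeded every lung array by a wide margin. Slc5a2, the main renal glucose carrier and target of gliflozin drugs, differed by 7.75 ± 0.08, the organic anion carriers Slc22a6 and Slc22a8 by 7.59 ± 0.25 and 6.58 ± 0.10, the organic cation carrier Slc22a2 by 6.68 ± 0.07 and the urate carrier Slc22a12 by 6.81 ± 0.13. Slc13a1, the sulphate carrier, differed by 8.05 ± 0.09. Transporters that lung also expressed differed less. Slc4a4, the basolateral bicarbonate carrier, was 12.8-fold higher in kidney, the carnitine carrier Slc22a5 6.14-fold and the glutamate carrier Slc1a1 3.77-fold. The member nearest to equal was Slc6a20a, a proline carrier, with means of 668 ± 125 (SD, n = 5) in kidney and 451 ± 97.1 in lung, 1.47-fold (adjusted p = 0.00889), and overlapping arrays. Slc22a13, a urate and nicotinate carrier, was not tested because only 4 arrays reached the percentile, at 434, 85.4, 299.6, 171 and 559, against 15.7, 23.5, 47.3, 36.1 and 16.1 in lung.

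The endocytic receptors and brush-border enzymes of the same cells went the same way in 19 of 22 members, with 1 higher in lung and a median of 4.04. Lrp2 (megalin), which takes up filtered protein, had signals of 11710, 11540, 13550, 14030 and 13140 in kidney and 589.7, 603, 654, 712 and 605 in lung and was 19.7-fold higher in kidney. Its partners Cubn and Amn, which lung arrays did not detect, differed by 6.4 ± 0.08 and 7.43 ± 0.15. Kidney and lung arrays did not overlap for any of the 3. Dab2, the adaptor that both organs use, was 2.40-fold higher in kidney. Pdzk1, the scaffold of the brush border, differed by 8.0 ± 0.19 and Cltrn (collectrin), which brings amino acid carriers to the membrane, by 8.14 ± 0.19. Peptidases were shared more widely: Mme, Anpep and Dpp4 were 3.004-fold, 3.07-fold and 3.64-fold higher in kidney. Dpep1, a renal dipeptidase, ran against its list at 1028 ± 229 in kidney and 3148 ± 264 in lung, 3.08-fold higher in lung with no overlap. Enpep, which degrades angiotensin II, was 2.92-fold higher in kidney by its brightest probe set, and its mean over probe sets gave a log2 difference of -0.237, so its direction depends on the probe set. Havcr1, the marker of injured proximal tubule, was below the filter in both organs, at 50.04, 76.8, 70.9, 79.5 and 80.1 in kidney.

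Enzymes of amino acid and glucose metabolism were on the kidney side as well. Of 27 genes for amino acid and creatine metabolism, 26 were at least 2-fold higher in kidney and 0 in lung (median 4.24). Gatm, which makes the creatine precursor in kidney, gave 12330, 11410, 13880, 14630 and 13830 in kidney and 886, 847, 1001, 994 and 859.8 in lung, 14.2-fold higher (6.71-fold by the mean of its probe sets). Ass1 and Asl, which together make arginine from citrulline, were 18.8-fold and 8.92-fold higher, and the arrays of the organs did not overlap in these 3 genes. Hpd and Hgd of tyrosine breakdown differed by 8.27 ± 0.11 and 6.12 ± 0.20, Kmo and Haao of tryptophan breakdown by 4.51 ± 0.07 and 5.89 ± 0.23, and Miox, the inositol oxygenase found in proximal tubule, by 7.81 ± 0.13. Otc, the member below the filter, belongs to the urea cycle of liver and gut.

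Of 7 genes of gluconeogenesis and fructose use, 6 were at least 2-fold higher in kidney. Pck1, the rate-limiting enzyme of glucose production, had signals of 13940, 12300, 15160, 16020 and 15760 in kidney and 338, 341, 1616, 309 and 194 in lung. Kidney was 34.2-fold higher with no overlap. Lung replicate 3, which was also high in Ucp1, was the highest lung array, and without it the log2 difference was 5.58 in place of 5.10. Fbp1 differed by 7.33 ± 0.15, and Khk, the fructose kinase, by 5.24 ± 0.11. Pck2, the mitochondrial form, was 1.21-fold higher in kidney by its brightest probe set but -0.257 (log2) by the mean of its probe sets.

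Mitochondrial genes were higher in kidney by smaller steps that varied in size, with log2 differences of 0.43 for Tfam and 2.27 for Ndufs1. Of 24 genes of respiration, 20 were at least 2-fold higher in kidney, 0 in lung, and 0 failed the test, with a median log2 difference of 1.51. Subunits of each respiratory complex took part: Ndufs1 of complex I was 4.81-fold higher, Sdhb of complex II 2.90-fold, Uqcrfs1 of complex III 2.95-fold, Cox4i1 of complex IV 1.69-fold and Atp5f1c of the ATP synthase 3.05-fold. Ppargc1a, the coactivator of mitochondrial biogenesis, was at 2707, 1628, 2012, 1714 and 1794 in kidney and 314, 251, 325, 269.9 and 282 in lung, 6.45-fold higher. All kidney arrays of Ppargc1a lay above all lung arrays, although the kidney arrays spread more. Fatty acid oxidation followed, with 16 of 21 genes at least 2-fold higher in kidney, 0 in lung and a median of 1.52. The dehydrogenases Acadm and Acadvl were 3.92-fold and 2.97-fold higher, and the acyl-CoA synthetase Acsm2, not detected in lung, differed by 8.15 ± 0.13. Acsm5 did not pass the test (0.32 ± 0.36, adjusted p = 0.436).

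Downstream of the proximal tubule the same separation held for the thick ascending limb, where 11 of 13 members were at least 2-fold higher in kidney (median 5.55). All 13 were tested, and 7 of them passed through kidney alone, so those had to differ. Slc12a1, the salt carrier blocked by loop diuretics, had signals of 3920, 4606, 3938, 4868 and 5028 in kidney and 4.13, 8.05, 14.9, 10.7 and 17.5 in lung, a difference of 7.39 ± 0.14. Its potassium channel Kcnj1 differed by 6.44 ± 0.13, and the paracellular pore proteins Cldn16 and Cldn19, which carry calcium and magnesium, by 5.37 ± 0.13 and 4.35 ± 0.36. None of these was detected in lung. Egf, made in this segment and released to urine, differed by 6.63 ± 0.07. Irx1, a homeobox factor listed for this segment, was 2.72-fold higher in lung, and Ppp1r1b did not pass the test (522 ± 129 in kidney, 473 ± 109 in lung).

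In the distal convoluted tubule 7 of 11 members were at least 2-fold higher in kidney. Slc12a3, the thiazide-sensitive carrier, had signals of 3480, 3316, 3620, 3556 and 3484 in kidney and 2.81, 26.1, 41.3, 46.7 and 48.3 in lung, and Calb1, the calcium-buffering calbindin, differed by 8.37 ± 0.07. The kidney arrays of Slc12a3 lay close together and none came near the lung arrays. Kl (klotho), the FGF23 co-receptor, differed by 3.21 ± 0.20. Trpv5, the calcium entry channel of this segment, went against the list at 185 ± 34.5 in kidney and 282 ± 46.3 in lung by its brightest probe set. Its mean over probe sets turned the log2 difference to 1.114, so no direction is given for it. Pvalb and Kcnj10 were below the filter.

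Of 11 principal-cell genes of the collecting duct, 10 were at least 2-fold higher in kidney (median 3.43). All 11 were tested, and 6 of them passed through kidney alone, so those had to differ. Aqp2, the vasopressin-regulated water channel, had signals of 6706, 8182, 8306, 8835 and 8841 in kidney and 6.72, 9.02, 12.9, 10.9 and 9.03 in lung, a difference of 8.31 ± 0.09. The receptor Avpr2 differed by 3.36 ± 0.28 and the urea carrier Slc14a2 by 4.68 ± 0.12. Hsd11b2, which shields the mineralocorticoid receptor from glucocorticoid, was 12.97-fold higher in kidney. The exception was Aqp4, which was 1.73-fold higher in lung. Of 11 intercalated-cell genes, which serve acid and base secretion, 7 were at least 2-fold higher in kidney and 1 in lung. Of the 9 tested, 5 passed through kidney alone, so those had to differ. Foxi1, the factor that specifies these cells, gave 905, 809, 885, 852 and 817 in kidney and 40.1, 23.7, 33.6, 15.7 and 36.8 in lung. The organs did not overlap for Foxi1. The proton pump subunit Atp6v1g3 differed by 6.68 ± 0.08 and the exchanger Slc26a4 (pendrin) by 3.72 ± 0.14. Slc4a1 (band 3), which red cells and intercalated cells share, was only 1.73-fold higher in kidney, while of 5 red-cell genes 3 were at least 2-fold higher in lung, Alas2 4.59-fold and Ahsp 8.25-fold, and Hbb, a globin, was at 15210 ± 1891 in kidney and 17460 ± 1283 in lung (adjusted p = 0.0569, and 0.0256 to 0.0319 without kidney replicate 3, kidney replicate 4 or lung replicate 4). The part of red cells in the Slc4a1 value was not tested. The pump subunit Atp6v1c2 was 2.08-fold higher in lung with all 10 arrays, and -0.98 (log2), under 2-fold, without kidney replicate 5.

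The glomerular list did not separate the organs as the tubular lists did. Of 13 genes of podocytes and their basement membrane, 4 were at least 2-fold higher in kidney and 4 higher in lung, and the median was -0.44. Nphs1 (nephrin), the core of the slit diaphragm and specific to podocytes, had signals of 330.5, 448, 350.5, 388 and 405 in kidney and 2.78, 1.48, 17.8, 17.9 and 6.87 in lung, a difference of 4.03 ± 0.19. Wt1, the factor of podocytes and the early nephron, differed by 1.89 ± 0.15, and the podocyte phosphatase Ptpro was 2.19-fold and the basement membrane collagen Col4a4 2.09-fold higher in kidney. For these 4 genes no lung array reached a kidney array. Of the 13, 8 were called higher in lung. Among them Podxl, found in endothelium as well as podocytes, was 1.36-fold higher with overlapping arrays, the laminin chain Lamb2 2.32-fold, Clic3 7.33-fold and Cldn5, the endothelial claudin, 15.1-fold. Sulf1, which trims heparan sulphate, differed by -2.17 ± 0.12. The Podxl call was lost after median centring (adjusted p = 0.162) and by the mean of its probe sets (0.277). Cd2ap, an adaptor of the slit diaphragm that many cells make, was 1.53-fold higher in kidney.

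Of 11 genes of renin-angiotensin, erythropoietin and vitamin D, 6 were called higher in kidney, 4 of them at least 2-fold, and 1 in lung (median 0.92). Ace, the angiotensin-converting enzyme of lung capillaries, gave 4467, 4855, 5428, 4115 and 4759 in lung and 209.7, 200.1, 229, 112 and 268 in kidney and was 22.2-fold higher in lung. Agt, the precursor of angiotensin, was 2.74-fold higher in kidney and Agtr1b differed by 2.78 ± 0.14, whereas the receptor Agtr1a did not pass the test, at 2507 ± 160.1 in kidney and 2350 ± 246 in lung (95% interval of the log2 difference -0.08 to 0.27). Vdr, the vitamin D receptor, differed by 2.46 ± 0.15, and Cyp27b1, which activates vitamin D, by 0.98 ± 0.20 with overlapping arrays. Epo was below the filter in both organs, at 6.02, 2.97, 8.44, 6.72 and 21.5 in kidney.

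**Figure D2:**
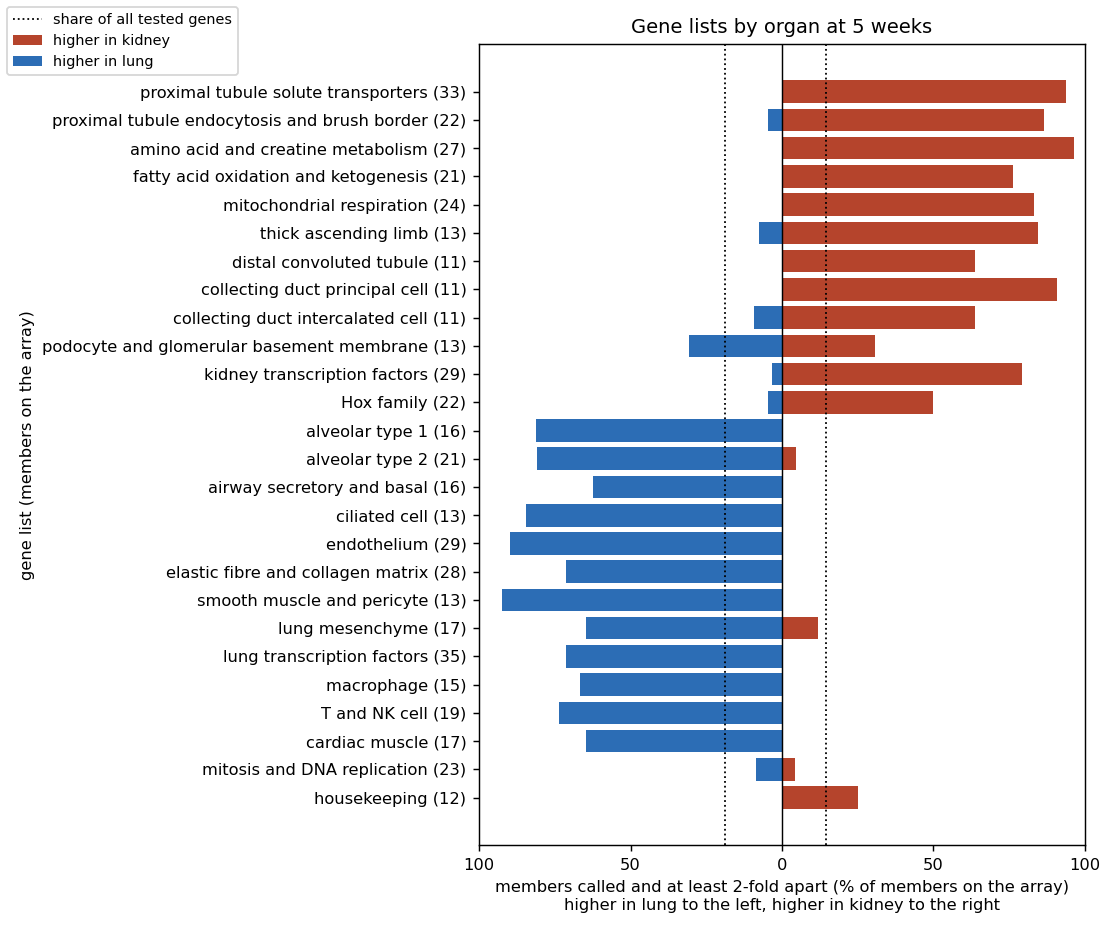
Share of the members of 26 gene lists that were called and at least 2-fold higher in kidney (bars to the right) or lung (bars to the left), with the number of members on the array in brackets. Dotted lines mark the shares over all genes tested, 14.7% for kidney and 18.8% for lung. The tubular lists point right, the alveolar, airway, vascular and matrix lists point left, and the podocyte list points both ways.

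Surfactant genes were among the largest differences on the lung side. Of 21 genes of alveolar type 2 cells, 17 were at least 2-fold higher in lung and 1 in kidney (median -2.93). Sftpc, the surfactant protein made by these cells alone, had signals of 14960, 16880, 16630, 13350 and 15440 in lung and 99.4, 74.9, 72.6, 107 and 104 in kidney, a difference of -7.18 ± 0.11. Every lung array exceeded every kidney array by a wide margin. Lpcat1, which remodels surfactant lecithin, was 25.2-fold higher in lung, the phosphate carrier Slc34a2 26.97-fold and the lipid pump Abca3 2.20-fold. Napsa, the protease that trims surfactant protein B, ran the other way, with 11720, 11330, 13700, 13210 and 12290 in kidney and 7832, 7822, 7777, 7822 and 7646 in lung. Kidney was 1.59-fold higher without overlap, and Ctsh, which acts on the same protein, was 1.56-fold higher in kidney. The complement gene C5 was also higher in kidney (3.87 ± 0.49). Napsa is also known as a protease of the proximal tubule. Of 15 genes of lipid synthesis that surfactant draws on, 5 were at least 2-fold higher in lung and 2 in kidney. The shares over all genes tested were 18.8% and 14.7%, so the kidney count is near that background. Scd was 11.1-fold and Fasn 2.56-fold higher in lung, while Chpt1, the last step of lecithin synthesis, was 12.4-fold higher in kidney.

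Genes of the flat type 1 cells were at least 2-fold higher in lung in 13 of 16 cases and in kidney in 0 (median -3.61). Hopx, a factor of these cells, had signals of 11050, 10240, 11470, 10020 and 10720 in lung and 669.5, 583, 647, 716 and 710 in kidney and was 15.8-fold higher in lung. Emp2 was 26.1-fold, Pdpn (podoplanin) 18.5-fold, Sema3e 19.96-fold and Cav1, the caveolin that endothelium also makes, 9.46-fold higher (Cav1 14.9-fold by the mean of its probe sets). Kidney also detected these 5 genes, but no kidney array reached a lung array. Timp3 and Krt7 were higher in kidney by 1.20-fold and 1.17-fold, calls that were lost after quantile normalization (adjusted p = 0.706 and 0.197).

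The airway epithelium was represented by 16 secretory and basal genes and 13 ciliated-cell genes. Of the first, 10 were at least 2-fold higher in lung and 0 in kidney. Of the 12 tested, 6 passed through lung alone, so those had to differ. Scgb1a1, the secretoglobin of club cells, gave 15560, 16030, 16230, 14050 and 15390 in lung and 51.04, 59.97, 48.9, 78.6 and 72.8 in kidney, a difference of -7.64 ± 0.11, and the club-cell enzyme Cyp2f4 was 24.2-fold higher in lung. Bpifa1, a secreted defence protein of large airways, was uneven among lungs, at 3197, 2999, 5206, 1729 and 2711. Every lung array of these genes was above every kidney array. The basal-cell genes Krt5 and Tp63 were below the filter. Of the ciliated-cell genes, 11 were at least 2-fold higher in lung. All 13 were tested, and 8 of them passed through lung alone, so those had to differ. Foxj1, the master factor of motile cilia, gave 418, 469, 519, 597 and 383 in lung and 54.1, 30.1, 43.8, 55.9 and 70.6 in kidney, Dynlrb2, a dynein chain, was 22.04-fold higher in lung, and Tppp3 differed by -6.53 ± 0.30. Cetn2, a centriole protein of all cells, was 1.13-fold higher in lung, and its difference became 0.034 (log2) after median centring.

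Endothelium, which both organs need, was also on the lung side. Of 29 genes, 26 were at least 2-fold higher in lung and 0 in kidney (median -2.33), and 28 were detected in most kidney arrays. Pecam1 had signals of 2585, 3093, 2267, 2394 and 2651 in lung and 833, 672, 679.6, 886 and 700.5 in kidney and was 3.40-fold higher in lung. Vwf, stored in endothelial granules, gave 4732, 4516, 4312, 4498 and 4384 in lung and 406, 362, 540.1, 308 and 384 in kidney, 11-fold higher. The arrays of the organs did not overlap in either gene. Kdr, the VEGF receptor, was 4.18-fold, Calcrl 20.2-fold, Ramp2, its partner, 9.98-fold and Acvrl1, a TGF-beta family receptor, 16.4-fold higher in lung. By the mean of its probe sets Kdr was 2.52-fold higher. Plvap, the protein of fenestral diaphragms, was only 2.06-fold higher. Hpgd, which inactivates prostaglandins, did not pass the test (1599 ± 338 in kidney, 1442 ± 198 in lung).

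Matrix genes, among them those of elastic recoil, were mostly higher in lung. Of 28 genes of elastic fibre and collagen, 20 were at least 2-fold higher in lung and 0 in kidney (median -1.72). Eln (elastin) had signals of 6535, 7563, 6586, 6081 and 6648 in lung and 439.5, 347, 438, 342 and 262 in kidney and was 17.8-fold higher in lung. Its cross-linking enzymes Lox and Loxl1 were 13.5-fold and 7.44-fold higher, while the fibril collagens Col1a1, Col1a2 and Col3a1 were 3.04-fold, 4.11-fold and 3.37-fold higher. No kidney array of these 6 genes reached a lung array. Dcn (decorin) was 1.44-fold higher in kidney, and Nid1 was 1.20-fold higher in kidney by its brightest probe set and -0.057 (log2) by the mean of its probe sets. Of 13 genes of smooth muscle and pericytes, 12 were at least 2-fold higher in lung: Myh11, the smooth muscle myosin, was 4.83-fold and Acta2 3.19-fold higher. Of 17 genes listed for lung mesenchyme, 11 were at least 2-fold higher in lung and 2 in kidney. Wif1, a Wnt antagonist, differed by -5.96 ± 0.17 and Hhip, the hedgehog antagonist, by -2.87 ± 0.12. The exceptions were the methyltransferase Inmt, 17.8-fold higher in kidney at 3948, 3742, 4480, 6431 and 4871 against 200.2, 403, 199, 352 and 151, and Adh1c, 2.16-fold higher in kidney. Pdgfra and Gpm6a did not pass the test. Pdgfra passed it toward lung without lung replicate 2 (adjusted p = 0.0175) and with the replicate number as a block (0.042).

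Leukocyte genes were mostly higher in lung. Of 15 macrophage genes, 10 were at least 2-fold higher in lung and 0 in kidney, of 19 genes of T and NK cells 14 and 0, of 9 B and plasma cell genes 6 and 0, and of 14 genes of neutrophils and mast cells 8 and 1. The last were 13 in lung with no filter, and 5 and 0 with the filter at the 60th percentile. Of the genes tested, 8 of 15 for T and NK cells passed through lung alone. So did 3 of 7 for B and plasma cells and 5 of 9 for neutrophils and mast cells, and all of these had to differ. Mrc1, the mannose receptor of resident macrophages, had signals of 2832, 2195, 2447, 2598 and 2502 in lung and 193, 126, 105, 182 and 148 in kidney and was 15.4-fold higher in lung. The beta-glucan receptor Clec7a was 19.7-fold and the chemokine Ccl6 19.1-fold higher. S100a9, a protein of neutrophils, gave 2147, 2557, 3187, 2214 and 1740 in lung and 59.8, 53.1, 80.03, 72.3 and 34.1 in kidney. In all of these the lung arrays stood clear of the kidney arrays. Cd3e of T cells differed by -2.29 ± 0.16, Cd79b of B cells by -3.31 ± 0.25 and Cpa3 of mast cells by -3.32 ± 0.15. Mmp9 was the exception at 124, 180, 189.5, 164 and 213 in kidney and 4.85, 17.99, 49.05, 24.4 and 34.6 in lung. With the filter at the 60th percentile the T and NK count was 3 and the B-cell count 2, a filter that fewer of these dim genes passed. Class II antigen-presentation genes differed less: 7 of 8 were called higher in lung, but 1, RT1-Db1, reached 2-fold, and Cd74 was 1.55-fold higher. The call for RT1-Ba (adjusted p = 0.0315) was lost without kidney replicate 1, 4 or 5 or lung replicate 2, 3 or 4 (0.0507 to 0.0768), and RT1-Bb, the member not called (0.355), passed with the replicate number as a block (0.000382). The count at 2-fold was 0 after median centring and without kidney replicate 1, and 2 without kidney replicate 2, kidney replicate 3 or lung replicate 5.

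Cardiac muscle genes were detected mainly in lung: 11 of 17 were at least 2-fold higher in lung, 12 were detected there and 2 in kidney. Of the 12 tested, 10 passed through lung alone, so those had to differ. Myl7, the atrial light chain, had signals of 2088, 2094, 4831, 2504 and 2130 in lung and 16.8, 16.8, 18.4, 4.10 and 5.63 in kidney, with lung replicate 3 the highest (log2 difference -6.55, and -6.32 without that array). The ventricular genes Myl2 and Myh7 were below the filter in both organs. The part of heart tissue in the lung values was not tested. With the filter at the 60th percentile the lung count of this list was 6.

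The transcription factors known for each organ separated too. Of 29 factors listed for kidney, 23 were at least 2-fold higher in kidney and 1 in lung. Of the 28 tested, 17 passed through kidney alone, so those had to differ. Hnf4a, the nuclear receptor that drives proximal tubule genes, had signals of 8718, 8398, 9812, 9356 and 9324 in kidney and 11.9, 1.10, 4.56, 5.17 and 5.71 in lung, a difference of 8.73 ± 0.11. Pax8, a factor of the nephric lineage, gave 2798, 2591, 2751, 2467 and 2377 in kidney and 22.8, 49.7, 21.9, 61.9 and 50.8 in lung. The lung arrays of both factors lay under the percentile and far below every kidney array. Pax2 differed by 4.58 ± 0.23, Emx2 by 5.18 ± 0.08, Sall1 by 5.59 ± 0.09, Tfap2b by 5.35 ± 0.15 and Nr1h4, the bile acid receptor, by 5.79 ± 0.21. Irx1 was the member at least 2-fold higher in lung, though not by the mean of its probe sets, Irx2 was 1.68-fold higher in lung, and Irx3 did not pass the test (0.03 ± 0.05).

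Of 35 factors listed for lung, 25 were at least 2-fold higher in lung and 0 in kidney. Of the 30 tested, 10 passed through lung alone, so those had to differ. Tbx4, a T-box factor of lung mesenchyme, had signals of 2440, 2591, 2468, 2623 and 2408 in lung and 2.06, 1.73, 1.42, 1.27 and 1.55 in kidney, a difference of -7.16 ± 0.05. Nkx2-1, which specifies lung epithelium, gave 2542, 3495, 3322, 3345 and 2800 in lung and 60.8, 27.7, 59.5, 65.1 and 56.9 in kidney, a difference of -5.50 ± 0.16. No array of either organ came near the other. Foxf1 of mesenchyme and endothelium differed by -5.94 ± 0.14, Foxa2 of epithelium by -5.14 ± 0.09 and Tbx5 by -5.05 ± 0.19. Epas1, a hypoxia-inducible factor of endothelium, was 3.04-fold (5.18-fold by the mean of its probe sets) and Klf4 7.66-fold higher in lung. Foxp2 was 1.56-fold higher in lung with overlapping arrays.

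Promoters bear on these factors, because genes with large organ differences can be searched for the letters that hepatocyte nuclear factors, forkhead factors and NKX2-1 are known to favour. RefSeq promoters (rat build GRCr8) were found for 11700 of the 14217 genes, and the 250 bases before each start were searched on both strands. The letters of the HNF1 palindrome, TTAAT and TTAA with any 2 bases between them, were in 0.43% of all 33469 promoters and in 0.315% of the tested genes, but in 11 of 363 genes (3.03%) with a log2 difference of at least 3 toward kidney and in 0 of 221 toward lung. The 11, read off after the search, were C5, Cldn10, Cltrn, Ddc, Gas2, Gc, Hgd, Hnf4a, Nipsnap1, Slc17a3 and Tinag. The HNF4 letters CAAAGTCCA were in 0.338% of all promoters and 0.304% of the tested genes, in 6 of the 363 kidney genes (1.65%: Agxt2, Aspdh, Kmo, Pdzk1, Slc3a1 and Smlr1) and in 0 of the 221 lung genes. The forkhead letters TGTTTGC were common, in 4.16% of all promoters, 2.96% of the tested genes, 4.41% of the kidney genes and 6.79% of the lung genes, among them Sftpb, Cldn18 and Scgb3a1. The NKX2-1 letters CACTCAAG were in 0.986% of all promoters, 0.792% of the tested genes, 1.1% of the kidney genes and 2.26% of the lung genes, including Scgb1a1 and Nkx2-1 itself. In 1 promoter matches of different motifs overlapped. A match is a description of letters, not a site or a cause.

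The windows below, each the 250 bases before the start and written 5′ to 3′ on the strand of the gene, show an example of each kind and the HNF1 letters of Hnf4a itself. Capitals mark the match, read on either strand. Cltrn and Hnf4a hold the HNF1 letters 131 and 89 bases before the start, Pdzk1 the HNF4 letters 9 bases before it, Scgb3a1 the forkhead letters 107 bases before it and Scgb1a1 the NKX2-1 letters 92 bases before it. The Hnf4a window belongs to the second of its 2 promoters, inside the gene. The Cltrn window also holds the forkhead letters near its end, left in lower case.
Cltrn, chrX:34027125-34027374, minus strand: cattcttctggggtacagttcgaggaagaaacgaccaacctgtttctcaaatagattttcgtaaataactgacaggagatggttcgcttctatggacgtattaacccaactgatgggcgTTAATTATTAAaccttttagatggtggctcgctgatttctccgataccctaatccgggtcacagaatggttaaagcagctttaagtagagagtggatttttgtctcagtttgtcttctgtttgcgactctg
Hnf4a, chr3:172641586-172641835, plus strand: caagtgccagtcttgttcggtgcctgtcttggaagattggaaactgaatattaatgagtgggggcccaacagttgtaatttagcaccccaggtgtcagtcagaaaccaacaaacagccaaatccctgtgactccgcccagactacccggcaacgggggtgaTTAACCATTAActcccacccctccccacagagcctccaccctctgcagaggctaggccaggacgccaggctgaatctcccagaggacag
Pdzk1, chr2:187064745-187064994, plus strand: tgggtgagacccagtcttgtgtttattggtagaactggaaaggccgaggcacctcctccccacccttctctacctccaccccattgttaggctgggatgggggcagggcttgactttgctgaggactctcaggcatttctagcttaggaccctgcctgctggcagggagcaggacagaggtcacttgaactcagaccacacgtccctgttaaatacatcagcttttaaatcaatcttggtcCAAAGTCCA
Scgb3a1, chr10:34468916-34469165, plus strand: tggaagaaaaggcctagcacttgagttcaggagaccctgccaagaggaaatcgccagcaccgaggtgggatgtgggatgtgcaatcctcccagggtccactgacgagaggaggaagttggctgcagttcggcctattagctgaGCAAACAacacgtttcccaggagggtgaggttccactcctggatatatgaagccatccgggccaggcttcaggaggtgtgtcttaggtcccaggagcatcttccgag
Scgb1a1, chr1:215409687-215409936, minus strand: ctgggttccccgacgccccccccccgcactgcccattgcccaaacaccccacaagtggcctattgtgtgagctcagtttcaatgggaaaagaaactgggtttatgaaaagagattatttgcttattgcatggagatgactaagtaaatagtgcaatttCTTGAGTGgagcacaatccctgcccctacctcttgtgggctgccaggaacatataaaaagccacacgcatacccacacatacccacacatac

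Hox genes mark position along the body axis in development. Of 22 on the array, 15 were tested and all of those were called. Of these 15, 10 had no lung array at the percentile and so had to differ. At least 2-fold differences numbered 11 toward kidney and 1 toward lung. Hoxa5, a factor of anterior level needed for lung development, was the member higher in lung, at 2062, 2688, 2177, 2254 and 2399 in lung and 907, 1004, 977, 1032 and 1107 in kidney, 2.28-fold without overlap. Hoxd8 gave 5569, 7022, 6083, 5518 and 6254 in kidney and 78.4, 64.4, 85.4, 90.7 and 66 in lung, a difference of 6.04 ± 0.10. The organs were far apart on all 10 arrays. Hoxa9, Hoxa10, Hoxd9 and Hoxd10, of posterior groups, differed by 5.25 ± 0.17, 5.05 ± 0.13, 5.04 ± 0.18 and 4.76 ± 0.10. The anterior members Hoxb2, Hoxb3 and Hoxb4 were detected in both organs and were 1.81-fold, 1.30-fold and 1.89-fold higher in kidney. Along the Hoxa cluster the difference went from -1.19 for Hoxa5 through 2.19 for Hoxa7 to 5.25 for Hoxa9 and 5.05 for Hoxa10, and was 2.21 for Hoxa11, so it did not rise along the whole cluster. After median centring Hoxa5 was under 2-fold higher in lung.

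**Figure D3:**
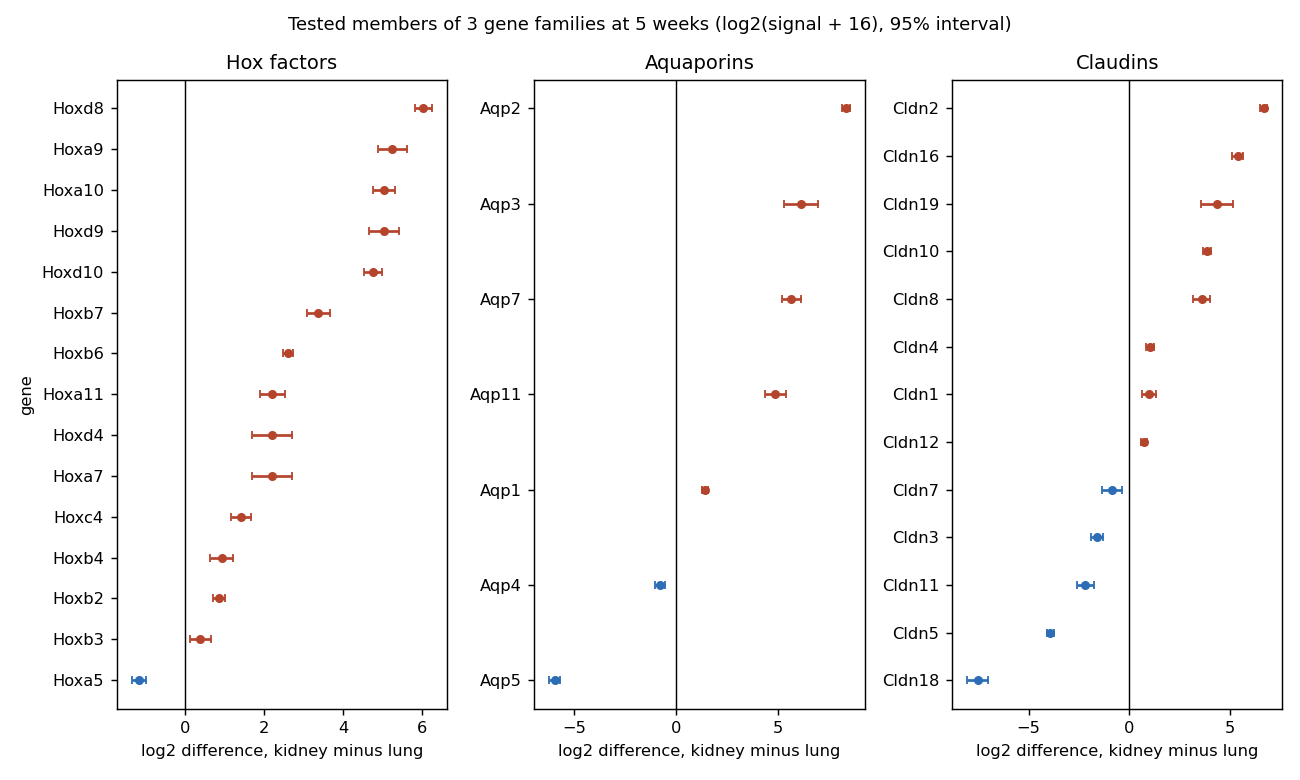
Log2 differences, kidney minus lung, of the tested members of the Hox, aquaporin and claudin families, with 95% intervals over 5 against 5 arrays (red, called higher in kidney; blue, called higher in lung). Hoxa5 alone of the tested Hox genes lies left of 0, and in the other families members lie on both sides.

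Aquaporins, the water channels, were divided between the organs. Aqp5, the channel of type 1 cells and airway glands, had signals of 2772, 3264, 2491, 2697 and 3008 in lung and 41.5, 30.4, 21.9, 24.9 and 33.3 in kidney, a difference of -5.96 ± 0.11, opposite to Aqp2. Aqp3, Aqp7 and Aqp11 differed by 6.14 ± 0.38, 5.65 ± 0.21 and 4.87 ± 0.23. Aqp1, in tubule and endothelium, was shared, at 9492, 8951, 9929, 10080 and 9036 in kidney and 3283, 3894, 3584, 3812 and 3317 in lung, 2.65-fold higher in kidney without overlap. Of 11 aquaporins, 4 were below the filter. Claudins, which seal or open the space between epithelial cells, had members on both sides as well. Of 16, 6 were at least 2-fold higher in kidney and 4 in lung, against 14.7% and 18.8% of all genes tested. The lung count is thus near that background. Cldn2, the leaky pore of the proximal tubule, gave 4488, 4141, 4225, 4794 and 4773 in kidney and 30.9, 21.2, 34.4, 28.5 and 26.1 in lung, and Cldn18, the tight claudin of alveoli, 8103, 8831, 8333, 8046 and 7204 in lung and 5.4, 38.98, 27.98, 39.9 and 41.8 in kidney. Each was far above the other organ on every array. Cldn8 and Cldn10 were 12.2-fold and 14.6-fold higher in kidney, and Cldn3 3.05-fold higher in lung.

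Carriers and channels with a close relative were divided in a like way. The phosphate carrier Slc34a1 differed by 7.79 toward kidney whereas Slc34a2, at -4.75, was higher in lung. The salt carrier Slc12a1 differed by 7.39 toward kidney, while Slc12a2, the secretory form, was 2.49-fold higher in lung. Among the subunits of the epithelial sodium channel, Scnn1a was 2.16-fold higher in lung, Scnn1g 1.47-fold higher in lung with overlapping arrays (adjusted p = 0.0542 after median centring), and Scnn1b 1.56-fold higher in kidney. The sodium pump regulator Fxyd2 was 40.5-fold higher in kidney and Fxyd1 5.24-fold higher in lung. The chloride channel Ano1 was 5.71-fold and Cftr 3.23-fold higher in lung.

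Enzymes that process foreign compounds were present in both organs, with some forms higher in each. Of 31, 14 were at least 2-fold higher in kidney and 6 in lung, against 14.7% and 18.8% of all genes tested. The lung count is thus near that background. The fatty acid hydroxylases Cyp4a8 and Cyp4a3 differed by 7.51 ± 0.11 and 7.12 ± 0.22 toward kidney, and Cyp2c23, which makes epoxides of arachidonic acid, was 36.7-fold higher in kidney. Cyp1a1, which aromatic compounds induce, varied among animals, at 2045, 5513, 4216, 4162 and 7953 in lung and 430, 288, 427, 281 and 937 in kidney. Lung was 9.88-fold higher and its lowest array was above the highest kidney array. Cyp4b1 was 7.06-fold higher in lung. Fmo1 was 2.77-fold higher in kidney and Fmo2, a lung form in many mammals, 1.63-fold higher in lung. Por, the electron donor of all microsomal P450 enzymes, did not pass the test, at 1636 ± 187 in kidney and 1460 ± 158 in lung, and passed it toward kidney without lung replicate 1 (adjusted p = 0.0308).

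Growth hormone and IGF genes, through which growth is set in both organs, lay on both sides. Of 20, 7 were at least 2-fold higher in kidney and 3 in lung, against 14.7% and 18.8% of all genes tested. The lung count is thus no more than that background. Igf1, the growth factor, had signals of 3221, 2791, 3481, 2888 and 2841 in lung and 1008, 1051, 997, 1130 and 1040 in kidney and was 2.88-fold higher in lung, while its receptor Igf1r was 2.33-fold and the growth hormone receptor Ghr 4.01-fold higher in kidney. The arrays of the organs did not overlap in these 3 genes. The binding protein Igfbp1 differed by 5.48 ± 0.08 and Igfals, which holds IGF in its circulating complex, by 4.12 ± 0.09, both below the percentile in lung. Igfbp3 and Igfbp5 were 3.17-fold and 2.66-fold higher in kidney, Igfbp6 5.19-fold higher in lung, and Igfbp4 did not pass the test (960.2 ± 71.9 in kidney, 960.4 ± 66.2 in lung). Interferon response genes leaned to lung, with 8 of 14 at least 2-fold higher there and 0 in kidney: the antiviral Bst2 was 4.48-fold and Rsad2 2.94-fold higher, while Mx1 did not pass the test (adjusted p = 0.721).

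Other groups differed by small steps. For 3272 genes the 95% interval of the log2 difference lay within -0.5 and 0.5. Of 12 housekeeping genes, 4 were called higher in kidney, 3 of them at least 2-fold, 3 were called higher in lung, 5 did not pass the test, and the median was 0.004: Tbp gave 465, 399.6, 408, 361 and 396 in kidney and 455, 398, 408, 433 and 381 in lung, and Ywhaz differed by 0.03 ± 0.05, a value that was -0.234 after quantile normalization and 0.247 after median centring. Rpl13a was 1.42-fold higher in lung, and Sdha, Pgk1 and Tfrc were 3.59-fold, 2.68-fold and 2.33-fold higher in kidney. Of 23 genes of mitosis and DNA replication, 16 were called higher in lung and 2 in kidney, but only 2 and 1 at least 2-fold, and 5 did not pass the test (median -0.39). Mki67, the mark of cycling cells, had signals of 731, 627, 681, 622 and 729.5 in lung and 421, 405, 425, 477 and 466 in kidney and was 1.53-fold higher in lung. Kif11 was 4.19-fold higher in kidney and Bub1 2.66-fold higher in lung.

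Markers of neighbouring tissues were measured beside these results. None of 10 adrenal genes or 3 thyroid genes passed the filter, but Cyp21a1 and Hsd3b1, steroid enzymes of the adrenal list, were detected on 3 of 5 kidney arrays and no lung array. With no filter 3 adrenal genes were called and at least 2-fold higher in kidney and 1 in lung. Of 7 fat genes, 6 passed it, 2 were called higher in kidney and 1 in lung. The number at least 2-fold higher in kidney was 1, and 3 without lung replicate 3. Cidec of lipid droplets was higher in kidney (2.51 ± 0.24) and Cfd (adipsin) higher in lung (-2.21 ± 0.37). Adipoq (adiponectin) gave 235, 241, 188, 257 and 212 in kidney and 65.5, 134, 320.4, 93.5 and 82.3 in lung, a difference of 0.84 (adjusted p = 0.0303) and of 1.17 (adjusted p = 6.33e-05) without lung replicate 3. The call for Adipoq was lost without kidney replicate 1, 2 or 4 or lung replicate 1, 4 or 5 (largest adjusted p = 0.0743). Ucp1 gave 59.7, 332, 203, 734 and 436 in kidney and did not pass the test (adjusted p = 0.264), but passed it without lung replicate 3 (0.0169). The part of adherent fat in these values was not tested. Of 13 liver genes, 5 were detected in kidney and 2 in lung. Of the 7 tested, 3 were called and at least 2-fold higher in kidney and 2 in lung. With no filter the kidney count was 5. Alb gave 113, 111, 64.5, 242 and 361 in kidney and 99.2, 56.5, 73.3, 84.6 and 149 in lung (adjusted p = 0.129, 0.0304 without kidney replicate 3 and 0.0265 with the replicate number as a block). Fgg, a fibrinogen chain, was at 1404, 1620, 1432, 1158 and 1343 in lung and 44.2, 57.6, 44.5, 50.1 and 40.8 in kidney. Serpina1 was also higher in lung (-1.97), whereas Fga, Apoh and F2 were higher in kidney (3.27, 2.93 and 2.75). The probe set assigned to Myh1, a fast skeletal myosin, was bright in both organs, at 10150 ± 1341 in kidney and 2926 ± 462 in lung, while Myh2 and Myh4 were below the filter. The muscle genes Acta1 and Ckm were higher in lung (-2.52 ± 0.28 and -2.37 ± 0.25), at 145, 186, 380.5, 220 and 187 and 302, 245, 640.3, 325 and 231 there, with replicate 3 the highest for both, and below the percentile in kidney. The gene assignment of the Myh1 probe set can be old.

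The organ difference was also measured in 2 sets of other rats that share no array with the 10 above. In the tryptophan-deficient rats of 5 wk, 8347 of 11018 genes tested (75.8%) were called, 33.9% toward kidney and 41.8% toward lung, and 3305 (30%) at least 2-fold, 13.6% and 16.4%. There 1401 of the 1624 genes 2-fold higher in kidney (86.3%) and 1692 of the 2077 genes 2-fold higher in lung (81.5%) were called and 2-fold the same way, and by limma 0 were called the other way. Across 10871 genes tested in both, the log2 differences correlated at r = 0.985 (Pearson, genes are not independent replicates). In the rats of 1 wk 7478 of 10848 genes (68.9%) were called, 35.8% toward kidney and 33.1% toward lung, and 2357 (21.7%) at least 2-fold, 11.1% and 10.6%. The shares called 2-fold the same way were 59.8% (971 genes) and 49% (1018 genes), 11 and 42 were called the other way, and r was 0.905 over 10582 genes. The median absolute log2 difference over the same genes was 0.36 at 1 wk and 0.58 at 5 wk.

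The groups differed in how much of the 5 wk difference the younger organs held. The interaction test called a change of the organ difference between the ages for 6220 of 11450 genes (54.3%), 20.7% toward kidney and 33.6% toward lung, and 1483 (13%) were at least 2-fold. The median of the proximal tubule transporters was 4.36 at 1 wk and 6.05 at 5 wk, and 14 of 33 had an organ difference that was called and at least 2-fold more toward kidney at 5 wk, against a background of 4.86% of 11450 genes. Slc22a12 stood at 4.36 ± 0.26 at 1 wk and 6.81 ± 0.13 at 5 wk, a difference between the ages of 2.46 ± 0.31 (adjusted p = 2.06e-06). Slc34a1 stood at 7.49 ± 0.17 and 7.79 ± 0.12, a difference that did not pass the test (0.30 ± 0.22, adjusted p = 0.271, and 0.0378 after median centring). The thick ascending limb had medians of 5.48 at 1 wk and 5.55 at 5 wk. Podocyte genes moved away from kidney, from a median of 0.45 at 1 wk to -0.44 at 5 wk, with 7 of 13 at least 2-fold more toward lung, against a background of 8.1%. Nphs1 went from 5.18 ± 0.17 to 4.03 ± 0.19 and Wt1 from 4.11 ± 0.09 to 1.89 ± 0.15, both called, though Nphs1 not with 1 added in place of 16 (adjusted p = 0.477). Type 1 cell genes went from a median of -2.58 to -3.61, with Ager from -5.53 ± 0.17 to -8.51 ± 0.12, and matrix genes from -0.89 to -1.72, with 12 of 28 at least 2-fold more toward lung. Class II genes narrowed instead, from -1.83 to -0.87. The split of age differences depends on the scaling, since median centring gave 917 genes at least 2-fold more toward kidney and 567 more toward lung in place of 556 and 927.

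Some genes were higher in 1 organ at 1 wk and in the other at 5 wk. Of 10582 genes tested at both ages, 82.1% had the same sign at both, whether called or not. Genes called in opposite directions were not counted over all genes, and 4 examples follow. Cldn11, the claudin of myelin and testis, had a difference of 2.47 ± 0.09 at 1 wk and -2.19 ± 0.19 at 5 wk, the monooxygenase Moxd1 1.07 ± 0.17 and -3.82 ± 0.29, Irx1 0.67 ± 0.06 and -1.44 ± 0.11, and Fmo2 1.51 ± 0.20 and -0.70 ± 0.14. At 5 wk Cldn11 signals were 225, 167, 224, 135 and 145 in kidney and 1314, 682, 768, 884 and 759 in lung, and at 1 wk they ranged from 1477 to 1802 in kidney and from 253 to 358 in lung. Each of the 4 was called at both ages, in opposite directions. The largest age difference toward kidney was that of Dhrs7l1, a dehydrogenase, which ranged from 1.24 to 10.8 in kidney at 1 wk and gave 6339, 8014, 8208, 9588 and 6768 at 5 wk. The glucuronosyltransferase Ugt2b35, the organic anion carrier Slco1a1, the histamine methyltransferase Hnmt and AKR1C3l1 followed with age differences of 7.33 ± 0.72, 6.31 ± 0.24, 6.24 ± 0.23 and 5.63 ± 0.27. Toward lung the 5 largest were those of Nefl, Moxd1, Cldn11, Afp and Cyp1a1. Nefl, a neurofilament, and Afp, the fetal albumin relative, were high in kidney at 1 wk, from 1141 to 1857 and from 2645 to 11090, and under the percentile on all 10 arrays at 5 wk, and the change of Cyp1a1 was -4.58 ± 0.59.

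**Figure D4:**
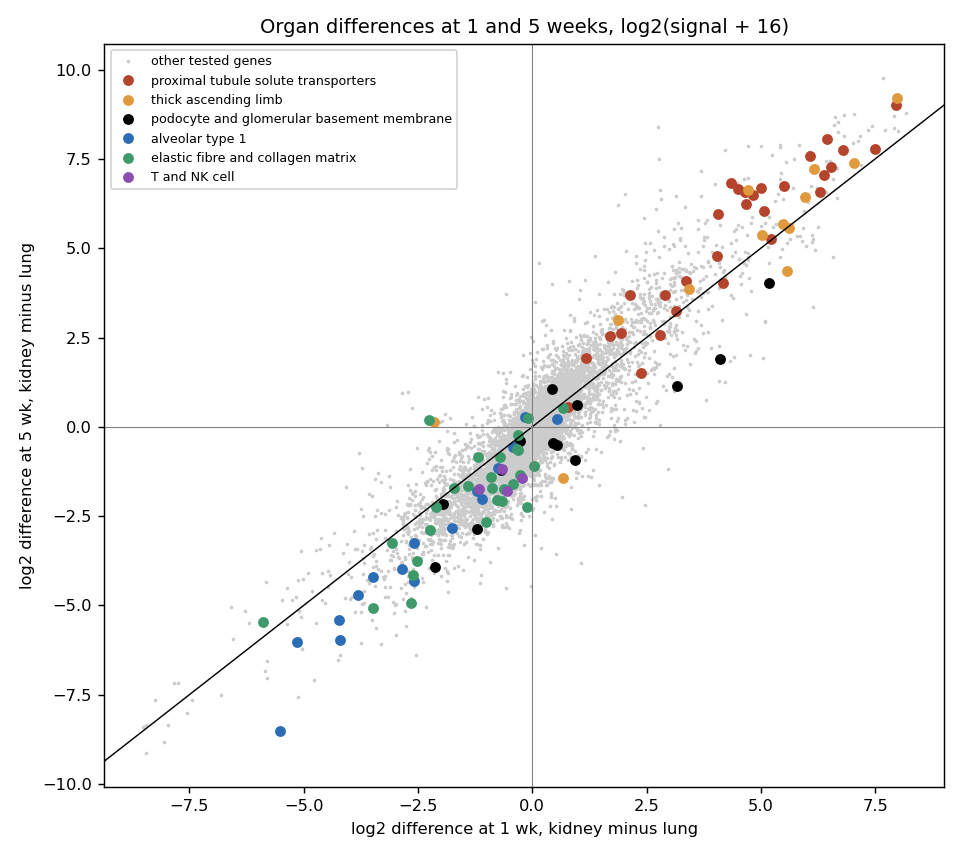
Log2 difference, kidney minus lung, at 5 wk against that at 1 wk for genes tested at both ages, each point a gene and the diagonal marking equal differences. Of 30 proximal tubule transporters 26 lie above the diagonal, while 12 of 13 podocyte genes, 15 of 16 type 1 cell genes and 23 of 28 matrix genes lie below it. Over all genes tested for the change with age, the median change was -0.11 (log2), toward lung, and 0.16 after median centring. The share of all genes on each side of the diagonal was not counted, and it depends on the scaling.

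Few organ differences changed with the diet. The difference between organs changed with the deficient diet for 674 of 11432 genes (5.9%), 378 (3.31%) toward kidney and 296 (2.59%) toward lung, and at least 2-fold for 108 (0.945%), 37 (0.324%) toward kidney and 71 (0.621%) toward lung. Tff3, the gene with the widest ratio on the normal diet, gave 9707, 12760, 13220, 14050 and 9304 in kidney and 94.3, 129.6, 114, 112 and 109.7 in lung on that diet. In deficient rats its kidney signal ranged from 954 to 2827 and its organ difference was 3.24 ± 0.23 in place of 6.52 ± 0.13 (-3.27 ± 0.28, adjusted p = 2.04e-06). The vitamin D carrier Gc, the neuropeptide Gal, Dhrs7l1 and Slco1a1 also moved toward lung, by -3.78 ± 0.85, -3.06 ± 0.73, -7.48 ± 0.53 and -4.59 ± 0.66, whereas Chodl, Slc22a13, Gtse1, Avil and Mcpt10 moved toward kidney by 2.31 ± 0.45, 1.99 ± 0.52, 1.97 ± 0.41, 1.94 ± 0.34 and 1.81 ± 0.42. The Mcpt10 change did not pass with 1 added in place of 16 (adjusted p = 0.055). The Slc22a13 change (adjusted p = 0.0304) did not pass with 1 added (0.0651), with the replicate number as a block (0.0609) or without single arrays of either organ (0.0507 to 0.0559). Of 31 xenobiotic enzymes tested for the change, 6 were called as moving toward lung with the diet and 2 toward kidney, and of 26 amino acid genes 4 and 0.

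Kidney and lung arrays that share a replicate number moved together in some genes. Chosen after their values were seen, 24 tested genes had a gap of at least 1 (log2) among the 5 arrays in both organs, and in 17 of them the same numbers were low in both. Fam111a gave 3225, 3358, 3456, 243 and 209 in kidney and 4743, 4522, 4203, 349 and 402 in lung, with replicates 4 and 5 low in both organs. Ephx2, the soluble epoxide hydrolase, gave 2946, 173, 2382, 1810 and 193 in kidney and 414, 47.1, 439.5, 227 and 102 in lung, with replicates 2 and 5 low in both. RT1-Bb, a class II chain, gave 1502, 53.98, 1160, 1661 and 876 and 2541, 197, 1864, 2883 and 1906, with replicate 2 low in both, and Clec3b 237, 334, 119, 99.99 and 12.6 and 2188, 2534, 1429, 1445 and 84.9, with replicate 5 low in both. Of the 17 genes, 7 were called in the unpaired test and 14 with the replicate number as a block. Fam111a had an adjusted p of 0.667 without the block and 0.00116 with it, Pxmp4 0.0191 and 2.27e-07, and RT1-Bb 0.355 and 0.000382. These genes were picked because the same numbers were low in both organs, so the block lowers their error by that choice. The higher count is therefore no test of pairing.

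**Figure D5:**
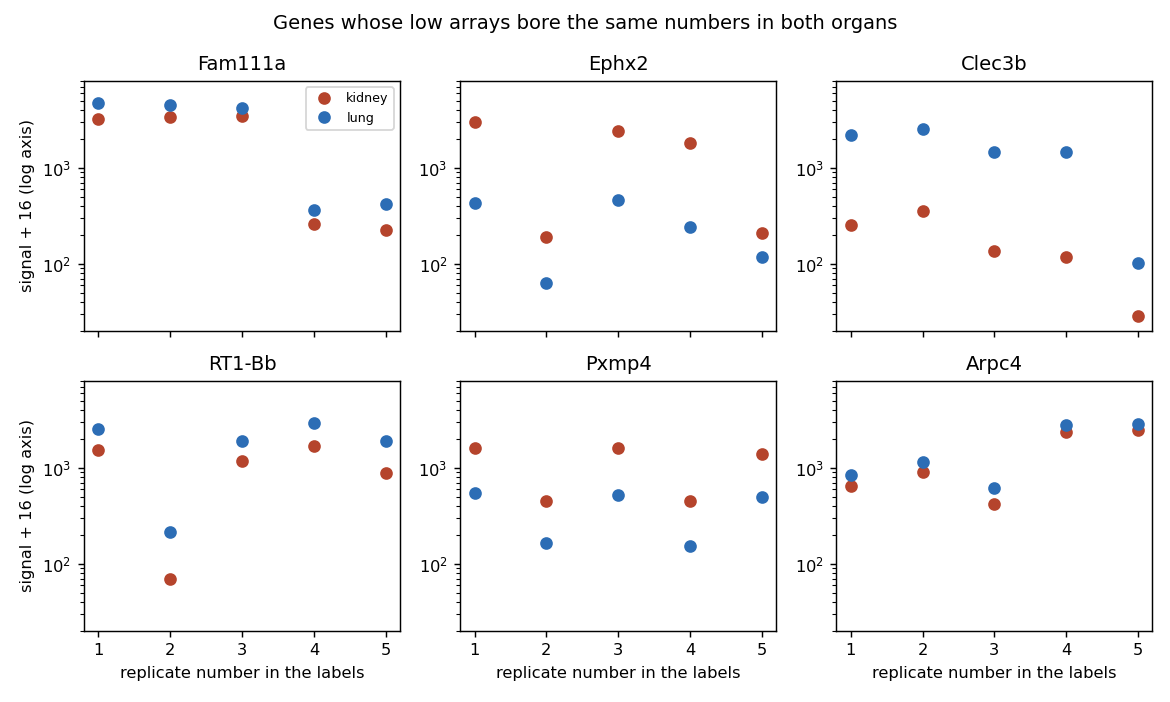
Signal + 16 (log axis) of 6 genes by replicate number in the 5 kidney (red) and 5 lung (blue) arrays. In each panel the numbers that are low in kidney are also low in lung, for example 4 and 5 in Fam111a and 2 and 5 in Ephx2.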

How the data were processed

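The deposited values are 1 signal (array intensity on a linear scale) per probe set and array, made by the authors with MAS5, per the submitters' processing notes; its version and settings are not given in the sources used here. The trimmed mean of every array was 499.997 to 500.001 after leaving out 2% of probe sets at each end, so the arrays had been scaled to 1 target. Of 31099 probe sets, 57 controls were left out, 20826 named 1 gene in the platform annotation, 436 several and 9780 none. For each of 14217 genes the probe set with the highest mean over all 30 arrays was used. Signals were taken as log2(signal + 16), filtered as the text describes and tested with limma 3.58.1 (lmFit, eBayes) in R 4.3.3, 5 against 5 arrays, with Benjamini-Hochberg adjustment over all genes tested. The organ differences of 2 ages or diets were compared by an interaction term over 20 arrays. The test was checked on simulated data: 18%, 74%, 94% and 100% of genes changed by 0.25, 0.5, 1 and 2 (log2) were called, 50 genes each. Only these genes were changed, out of 11067, whereas 79.4% of genes were called in the real comparison. The adjusted p depends on that share, so these percentages do not carry over to the real comparison. Tables and plots were made in Python 3.11.15 (matplotlib 3.10.9).

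The titles call arrays biological replicates, numbered 1 to 5 in each group. Whether a number marks 1 animal is not stated. Deviations from the group mean correlated at 0.114 to 0.257 between same-numbered kidney and lung arrays at 5 wk on the normal diet and at 0.155 to 0.283 on the deficient diet, each array best with its own number, so the numbers can pair arrays there. At 1 wk the correlations were -0.000687 to 0.21. All tests given are unpaired unless a sentence names the block, which was an alternative.

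The genes compared, the lists and the tests were chosen with earlier results of these data known. Genes named are the 10 largest differences and the 5 largest folds in each direction among called genes whose arrays did not overlap, set markers of each list, up to 4 called members of a list in each direction with the smallest and 2 with the largest adjusted p, and the 5 largest changes in each direction with age and diet. Other list members were added as examples after their values were seen, and the genes that split by number were chosen by their values. All columns of signals were used. Alternatives changed the added constant, the filter, the normalization, the probe-set rule, the variance model, the arrays and the pairing.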

Additional observations from a re-analysis of the deposited data

Results flagged for a closer look

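Each of 446 groups of 5 arrays, for the genes named above in each organ, was searched for an array far from the other 4, and 29 groups held one. Chance alone flags about 1 in 20 groups.

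Lung replicate 3 was high in Myl7 (4831), Pck1 (1616), Cfd (759), Ckm (640.3) and Hoga1 (168), and was also the highest lung array in Nppa and Ucp1. Lung replicate 1 was high in Cldn5 (7851), Por (1735), Tbx5 (1192) and Bub1 (373), lung replicate 2 high in Hoxb3 (746) and Irx3 (1648) and low in Ctsh (7957), lung replicate 4 low in Emp2 (8007), and lung replicate 5 high in Gtse1 (296).

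In kidney, replicate 5 was high in Cyp1a1 (937), Hpgd (2174) and Mme (5182) and low in Slc6a20a (449). Kidney replicate 2 was high in Hoxd10 (1916) and Fxyd1 (373) and low in AKR1C3l1 (7204) and Tmem100 (132). Kidney replicate 3 was high in Adh1c (6494) and Myh11 (429). Kidney replicate 4 was high in Vdr (360.2) and Trpv5 (244) and low in Atp6v0a4 (4256) and Clec7a (84.3). Kidney replicate 1 was low in Fasn (1145).

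The organ difference itself differed between the ages for 6220 genes by the interaction test. The largest of these changes in log2 difference, 5 wk minus 1 wk, were Dhrs7l1 (8.24), Ugt2b35 (7.33), Slco1a1 (6.31), Hnmt (6.24) and AKR1C3l1 (5.63) toward kidney, and Nefl (-5.06), Moxd1 (-4.90), Cldn11 (-4.65), Afp (-4.59) and Cyp1a1 (-4.58) toward lung.

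Between the diets it differed for 674 genes. The largest changes, deficient minus normal diet, were Chodl (2.31), Slc22a13 (1.99), Gtse1 (1.97), Avil (1.94) and Mcpt10 (1.81) toward kidney, and Dhrs7l1 (-7.48), Slco1a1 (-4.59), Gc (-3.78), Tff3 (-3.27) and Gal (-3.06) toward lung.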

How the results depend on the processing

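The count of genes called at 5 wk on the normal diet was 8784, and 8789 with the replicate number as a block; the block changed no count of this comparison by over 1.5 times. Of the 415 named genes tested there, it took the call from 1 and gave it to 5. Leaving out 1 array at a time gave 8587 to 8661 genes called (3782 to 3835 higher in kidney, 4801 to 4861 in lung) and 3689 to 3734 at least 2-fold (1615 to 1640 and 2058 to 2094). Such omissions gave 8130 to 8255 called genes on the deficient diet, 7184 to 7448 at 1 wk, 5990 to 6152 for the change with age and 506 to 679 for the change with diet. Median centring gave 4330 age changes called toward kidney in place of 2369 and 1970 toward lung in place of 3851, 917 and 567 of them at least 2-fold, and 159 diet changes called toward kidney in place of 378. It also turned the sign of B2m (0.004), Cetn2 (0.034), Igfbp4 (0.214), Mecom (0.027) and Rplp0 (0.191), and the mean of probe sets that of Enpep (-0.237), Nid1 (-0.057), Pck2 (-0.257), Trpv5 (1.114) and Wnk1 (-0.109), and quantile normalization that of Ywhaz (-0.234). The cause was not tested. At most 9 of those 415 lost and 9 gained a call under any 1 setting, both with median centring, among them Agtr1a, Hpgd, Irx3 and Por, which then passed toward kidney, and leaving out an array took the call from 6 and gave it to 7. The 5 wk difference of Cldn11 was -1.42 by the mean of its probe sets. With the filter at the 60th percentile, which tests fewer genes, the 2-fold lung count of ciliated-cell genes was 6 and of neutrophil and mast cell genes 5, and the kidney count of Hox genes 7. Signals below the 40th percentile, where many organ-restricted genes lie in the other organ, give no measured ratio.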
